A study of Mus musculus with 12 samples.

Results

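Metallothioneins and the main genes of iron handling formed a set of 10 genes among the 20614 genes of a table of astrocyte expression. They were chosen by gene symbol and not by a cutoff on measured values, but with earlier results of these data known. The set held 3 metallothioneins (Mt1, Mt2, Mt3), the 2 ferritin subunits (Fth1, Ftl1), 2 genes of iron export (Cp, Slc40a1) and 3 genes of iron uptake and supply (Slc39a14, Tfrc, Trf). RNA was sequenced from astrocytes that had been isolated from the midbrain (dissected as striatum, thalamus and substantia nigra) of male mice aged 12 to 14 months (mean 13.5 months), bred from the C57BL/6J strain. There were 3 libraries of Cd38+/+ mice, 3 of Cd38+/- mice and 6 of Cd38-/- mice, the mutants coming from the Cd38 knockout line B6.129P2-Cd38tm1Ln/J (allele Cd38tm1Lnd). Cd38 encodes an enzyme that consumes NAD, and the allele disrupts it in every cell of the animal, so that a difference between genotypes need not arise in the astrocytes themselves. The comparison asked whether loss of 1 or both copies of Cd38 changed the transcripts with which astrocytes buffer, store and move metals. All 10 genes were present in the table and all 10 passed the filter on low values (a mean above 5 TPM in at least 1 compared genotype) in each of the 3 comparisons. TPM is the level of a transcript per unit of its length, scaled to a fixed total in each library, so that levels of different genes can be set side by side.

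Metallothioneins are small proteins rich in cysteine that bind zinc and copper. Mt1 and Mt2 are induced by metals, glucocorticoids and stress, and Mt3 is the form typical of the brain. Iron that enters a cell is held in ferritin, a shell of heavy (Fth1) and light (Ftl1) subunits. Slc40a1 encodes ferroportin, the exporter of iron, and Cp encodes ceruloplasmin, a copper ferroxidase that astrocytes carry on their membrane and that works together with ferroportin. Tfrc encodes the receptor that takes up iron bound to transferrin (Trf), and Slc39a14 encodes a transporter of iron, zinc and manganese that is not bound to transferrin. When iron is scarce, iron regulatory proteins bind hairpins in some of these transcripts (iron-responsive elements): in the 5' UTR they hold back translation, and in the 3' UTR they protect the transcript from decay.

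Metal-responsive transcription acts through short promoter elements, and the metallothionein promoters are shown because the 3 genes lie side by side and 2 of them moved together across libraries. On GRCm38, Mt3 lies at chr8:94152607-94154146, Mt2 at chr8:94172664-94173568 and Mt1 at chr8:94179082-94180327, all on the plus strand. The 300-base windows below (RefSeq, GRCm38.p6) hold 250 bases before and 50 after an annotated start of transcription. They are written 5' to 3' on the plus strand, and elements outside them were not counted. Capitals mark each match, on either strand, to TGCACNC or TGCGCNC, the core letters of the metal response element.
Mt1, chr8:94178839-94179138: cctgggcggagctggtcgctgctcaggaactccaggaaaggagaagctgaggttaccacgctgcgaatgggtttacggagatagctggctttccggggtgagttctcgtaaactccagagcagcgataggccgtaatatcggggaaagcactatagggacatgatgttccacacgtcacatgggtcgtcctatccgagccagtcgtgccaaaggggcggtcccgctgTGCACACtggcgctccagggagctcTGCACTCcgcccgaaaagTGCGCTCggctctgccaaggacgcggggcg
Mt2, chr8:94172368-94172667: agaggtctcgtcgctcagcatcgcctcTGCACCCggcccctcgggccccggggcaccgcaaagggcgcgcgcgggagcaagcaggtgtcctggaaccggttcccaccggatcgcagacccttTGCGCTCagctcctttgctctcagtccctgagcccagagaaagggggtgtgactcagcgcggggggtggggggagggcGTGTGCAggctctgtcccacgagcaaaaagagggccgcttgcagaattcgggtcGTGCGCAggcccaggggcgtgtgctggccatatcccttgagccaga
Mt3, chr8:94152357-94152656: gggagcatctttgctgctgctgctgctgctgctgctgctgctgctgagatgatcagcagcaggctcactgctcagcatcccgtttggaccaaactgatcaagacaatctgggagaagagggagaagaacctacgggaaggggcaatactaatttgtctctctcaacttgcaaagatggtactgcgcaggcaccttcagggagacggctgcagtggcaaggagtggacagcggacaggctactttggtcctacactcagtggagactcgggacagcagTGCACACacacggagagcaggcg
The Mt2 window held 4 matches, 2 on each strand, and the Mt1 window held 3, all on the plus strand. The Mt3 window held 1 match, downstream of the annotated start. None of these matches overlapped another. Of 32851 promoter windows of the same length, 25.7% held at least 1 match, 1.97% held at least 3 and 0.517% held at least 4. RefSeq windows were matched for 7 of the 10 genes. No match to these letters stood in the windows of Cp, Ftl1 and Fth1, and 1 of the 2 Tfrc windows held 2 matches that overlapped each other. The letters TGACNNNGC, from the antioxidant response element, were searched on both strands as well and occurred once, in the Mt2 window, against 12.4% of all windows.

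The iron-responsive elements are shown because they divide the iron genes into those held back and those kept stable when iron is low. Transcripts of GENCODE vM21 were searched, on the sense strand, for a C, 5 bases, the loop CAGTGN with A, C or T at its end, and 5 bases that pair with the first 5 (G with T included), within a UTR. In the lines below the loop is in capitals, the sequence runs 5' to 3' along the transcript, and the coordinates (GRCm38) are those of the 17 matched bases.
Fth1 5' UTR, chr19:9982738-9982754, plus strand: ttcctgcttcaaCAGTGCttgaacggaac
Ftl1 5' UTR, chr7:45459785-45459801, minus strand: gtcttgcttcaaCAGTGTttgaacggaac
Slc40a1 5' UTR, chr1:45925471-45925487, minus strand: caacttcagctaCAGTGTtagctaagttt
Tfrc 3' UTR, chr16:32631225-32631241, plus strand: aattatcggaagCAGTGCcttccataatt
Tfrc 3' UTR, chr16:32631604-32631620, plus strand: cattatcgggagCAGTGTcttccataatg
Tfrc 3' UTR, chr16:32631669-32631685, plus strand: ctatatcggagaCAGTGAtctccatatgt
Tfrc 3' UTR, chr16:32631716-32631732, plus strand: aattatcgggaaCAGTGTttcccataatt
Such a hairpin was found in 4 of the 10 genes, against 123 of 21901 coding genes (0.562%). Fth1, Ftl1 and Slc40a1 each had 1 in the 5' UTR, and Tfrc had 4 in the 3' UTR. Of 90 metal handling genes searched, the set included, no others held a match. The pattern misses hairpins with another loop or with unpaired bases among the 5 pairs. A gene without a match may therefore still hold an iron-responsive element.

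The libraries differed in ways that touch several values below. Because of that fixed total, how many reads stand behind a value is unknown. Of 11845 expressed genes, 193 to 336 were listed at 0 in each Cd38+/+ library, against 4 to 14 in the Cd38+/- libraries and 7 to 10 in the Cd38-/- libraries. Replicates also scattered more in Cd38+/+, where a gene's SD on the log2 scale had a median of 0.482, than in Cd38+/- (0.197) or Cd38-/- (0.23). All 10 astrocyte markers were above 0 in every library, with a summed level of 11200 to 18340 TPM. RNA typical of other cells was present too: oligodendrocyte markers summed to 1329 to 17850 TPM, erythroid markers to 3228 to 34710 TPM and choroid plexus markers to 132.8 to 7481 TPM. In bulk libraries such as these, a change in the number of cells of a type and a change in RNA per cell cannot be told apart. Cd38 itself had 105 to 149 TPM in the Cd38+/+ libraries, 90.4 to 90.8 TPM in the Cd38+/- libraries and 8.54 to 21.9 TPM in the Cd38-/- libraries. Against Cd38+/+ this was a log2 fold change of -2.96 for Cd38-/- (limma q = 0.00116) and -0.44 for Cd38+/- (q = 0.226).

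The 10 transcripts covered more than 2 orders of magnitude in TPM. Mt1 and Fth1 were at the top, in places 10 and 9 of all genes by mean level in Cd38+/+, 11 and 10 in Cd38+/-, and 7 and 6 in Cd38-/-. Their ranges over the 12 libraries overlapped, with 3504.6 to 6521 TPM for Mt1 and 3927 to 9601 TPM for Fth1. Mt3 (1262 to 2477 TPM), Ftl1 (1356 to 2347 TPM) and Mt2 (839 to 1490.1 TPM) followed, each overlapping the next. Together the 3 metallothioneins made up 0.561 to 0.999% of all TPM in a library, and the 2 ferritin subunits 0.532 to 1.16%. The transport genes stood far lower: Trf had 65.3 to 385 TPM, Tfrc 27.7 to 59.2 TPM, Cp 14.7 to 62.4 TPM, Slc39a14 16.98 to 39.4 TPM and Slc40a1 0 to 51.8 TPM, the last 4 overlapping one another.

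**Figure D1:**
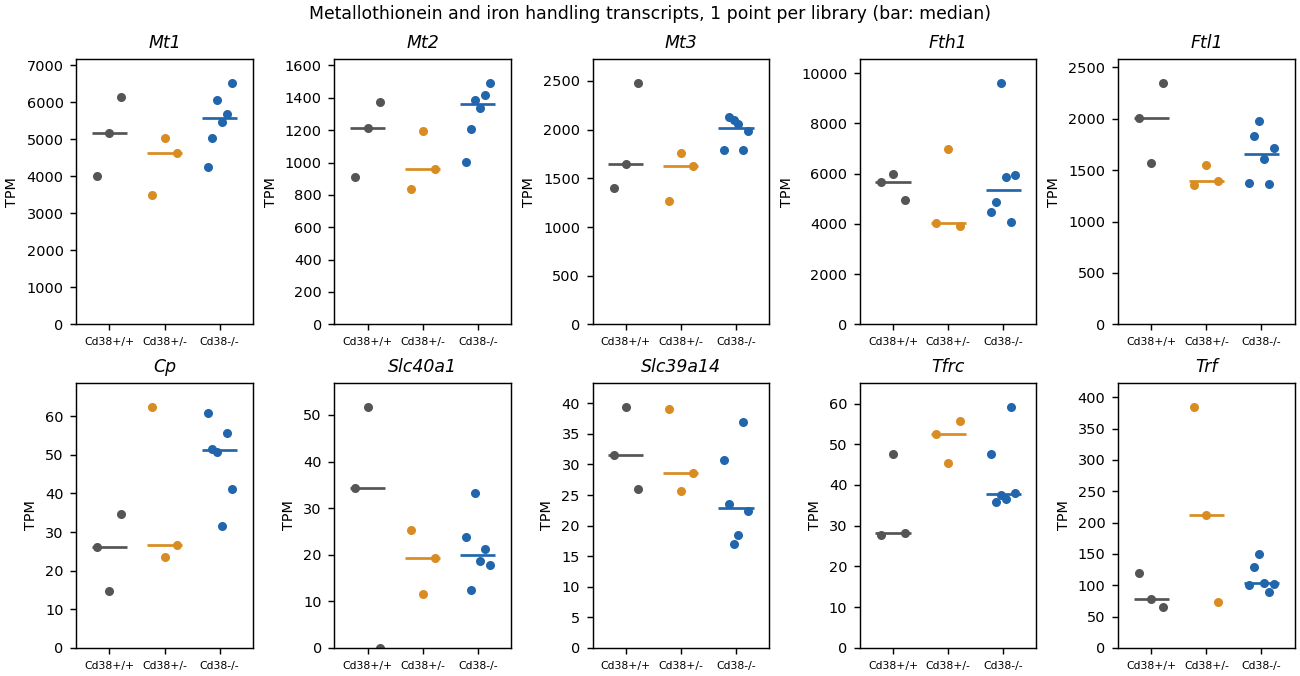
Level of each of the 10 transcripts in TPM (y axis, linear from 0, scaled for each gene) in each library, grouped by Cd38 genotype (x axis); each point is 1 library and each bar is the median of its genotype. Most genes overlap between genotypes, Cp sits higher in Cd38-/- than in Cd38+/+ with 1 overlap, and 1 Cd38+/+ library lists Slc40a1 at 0.

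A gene was called changed when it differed by 1.2-fold or more with a Storey q, from the limma fit over all tested genes, below 0.05. In Cd38+/- against Cd38+/+, 0 of the 10 genes were called, as were 0 of 11763 genes tested (0%). At an unadjusted p under 0.05 it was 1 of 10 (Ftl1), against 13.5% of all genes. Against Cd38+/+, 1 of 10 was called in Cd38-/- (Cp, higher), against 8.28% of 11722 genes, and the same 1 of 10 had an unadjusted p under 0.05, against 23.6%. Between the mutant genotypes, 0 of 10 were called, against 0.0346% of 11563 genes. There the unadjusted p was under 0.05 for 2 of 10 (Mt2 and Mt3), against 11.2%. The number of genes whose libraries did not overlap was 1 (Ftl1), 0 and 1 (Mt3) in these comparisons, against 22.5%, 11.8% and 5.73% of all genes. The median log2 fold change of the 10 genes was -0.13, 0.16 and 0.20, beside 0.18, 0.15 and -0.02 over all genes tested. These comparisons share libraries, so that a low or high genotype enters 2 of them.

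**Figure D2:**
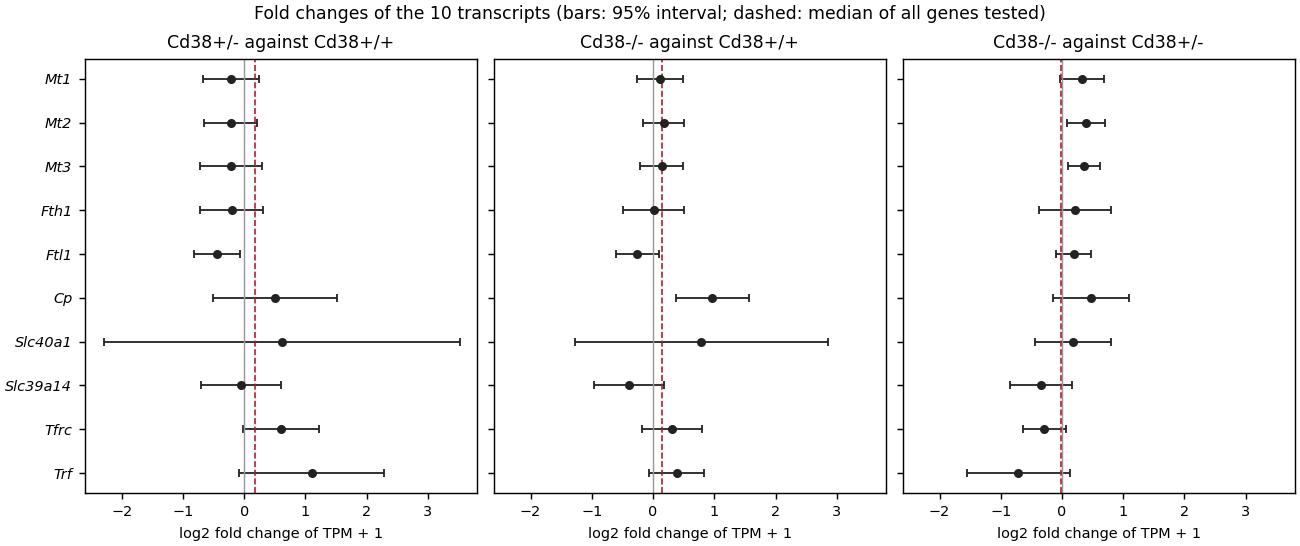
Log2 fold change of TPM + 1 (x axis) for each gene (rows) in the 3 genotype comparisons (panels); points are limma estimates, bars their 95% intervals, the solid line 0 and the dashed line the median of all genes tested. Only the intervals of Ftl1 in the first panel, Cp in the second, and Mt2 and Mt3 in the third leave out 0, and that of Slc40a1 is the widest in both comparisons with Cd38+/+.

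The metallothioneins were abundant in every genotype and were not called in any comparison. Mt1 had 4019.7, 5172 and 6141 TPM in the Cd38+/+ libraries and 3504.6, 5048 and 4629 TPM in the Cd38+/- libraries. In the Cd38-/- libraries it ranged from 4252 to 6521 TPM, with a median of 5573 TPM. The genotypes overlapped, the single highest library being Cd38-/- and the lowest Cd38+/-. Compared with Cd38+/+, Mt1 differed by -0.21 on the log2 scale in Cd38+/- (SE 0.202, limma q = 0.409) and by 0.12 in Cd38-/- (q = 0.401). The 95% interval of the latter runs from 0.838-fold to 1.4-fold. Mt2 had 913, 1213 and 1372 TPM in Cd38+/+, 839, 1192 and 961 TPM in Cd38+/-, and 1005 to 1490.1 TPM (median 1361) in Cd38-/-. Mt3 had 1396, 1650.1 and 2477 TPM in Cd38+/+, 1262, 1761 and 1630.3 TPM in Cd38+/-, and 1788 to 2127 TPM (median 2019.5) in Cd38-/-. Thus the Cd38-/- libraries all lay above the Cd38+/- libraries for Mt3, whereas the Cd38+/+ libraries spanned both.

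Between the mutant genotypes all 3 metallothioneins had a positive estimate. In log2 fold changes, Cd38-/- exceeded Cd38+/- by 0.33 for Mt1 (SE 0.164, limma q = 0.349), 0.39 for Mt2 (SE 0.145, q = 0.265) and 0.36 for Mt3 (SE 0.122, q = 0.245). Unadjusted limma p-values were 0.0692, 0.0196 and 0.0131. In two-sided exact permutation tests of single genes, p was 0.0952, 0.0357 and 0.0119, the last being the smallest that 6 against 3 libraries allow. None passed q under 0.05. Of all genes tested in that comparison, 2.85% were, like Mt3, higher without overlap, and 6.24% were higher with an unadjusted p under 0.05. Without Cd38+/+ replicate 3, which had the highest Mt3 of all, Mt3 was called higher in Cd38-/- than in Cd38+/+, with a log2 fold change of 0.38 (q = 0.0313). In that fit 2269 of 11779 genes tested were called higher.

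Markers of ependymal cells, the ciliated lining of the ventricles, were arranged between genotypes and within Cd38+/+ as Mt3 was, but not within the mutant genotypes. Their summed level over 6 genes was 2247 to 2798 TPM in Cd38+/- and 2982 to 4578 TPM in Cd38-/-, without overlap, and 2120.0, 2621 and 4358 TPM in Cd38+/+ replicates 1, 2 and 3, with none of the 6 at 0 in any library. Between the mutant genotypes 5 of the 6 had a higher level in Cd38-/- with an unadjusted p under 0.05, and 4 did not overlap (Tmem212, Ccdc153, Dynlrb2 and Pifo), while 0 were called. Of the 10 astrocyte markers, 9 had a negative log2 fold change in that comparison, with a median of -0.26, and 4 of these had an unadjusted p under 0.05. Within the mutant genotypes the orders of Mt3 and of the ependymal sum differed. Cd38+/- replicate 1 had the highest sum of its genotype, 2798 TPM, and the lowest Mt3, 1262 TPM. Cd38-/- replicate 4 had the lowest sum of its genotype, 2982 TPM, with Mt3 of 2056 TPM. Cd38-/- replicate 1 had a sum of 4426 TPM with Mt3 of 1796 TPM. The part of ependymal RNA in the metallothionein levels was not tested.

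The ratio of the metallothioneins to one another changed little. Mt1 exceeded Mt2 by a ratio of 4.01 to 4.82 across the 12 libraries (4.3 ± 0.213, SD, n = 12), with means of 4.38, 4.41 and 4.21 in Cd38+/+, Cd38+/- and Cd38-/-. Mt1 exceeded Mt3 by 2.37 to 3.29 (2.81 ± 0.303). Over the deviations from the genotype means, Mt2 was the gene most like Mt1 of all 11845 compared, with a Pearson's r of 0.963 over 12 libraries, and Mt1 was the gene most like Mt2. Mt3 had an r of 0.76 with Mt1 and 0.705 with Mt2, and the genes most like it were Tsen34 (0.967), Dexi (0.953) and Cdc34 (0.948). Such correlations also carry what the genes share in the library, such as length and base composition. Genes induced by glucocorticoids, of which the metallothioneins are examples, summed to 807 to 1352 TPM over 10 other genes in Cd38+/+, to 646 to 806 TPM in Cd38+/- and to 746 to 955 TPM in Cd38-/-. Of these 10, none was called in Cd38+/- and 2 were called lower in Cd38-/- against Cd38+/+: Sult1a1, a sulfotransferase (log2 fold change -0.99, q = 0.0434), and Nfkbia, an inhibitor of NF-kB (-0.55, q = 0.0362); 1.86% of all genes were called lower there. Pdk4, a pyruvate dehydrogenase kinase of the same list, lay the other way without a call, higher without overlap in Cd38+/- (0.85, q = 0.191) and in Cd38-/- (0.69, q = 0.0688). Genes of the response to cell dissociation summed to 970 to 1244 TPM in Cd38+/+, 520 to 817 TPM in Cd38+/- and 626 to 1203 TPM in Cd38-/-, and 1 of 14 tested, Junb, was called lower in Cd38-/- against Cd38+/+ (-1.03, q = 0.0249). The part of either list in the metallothionein levels was not tested.

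The ferritin heavy chain varied mostly within genotypes. Fth1 (chr19:9980598-9985098, plus strand) had 5676, 6002 and 4964 TPM in Cd38+/+, and 4039, 6969.7 and 3927 TPM in Cd38+/-. In Cd38-/- it had 4459, 4865, 9601, 5860.2, 4062 and 5937 TPM. The 3rd Cd38-/- library thus stood far above the others, as did the 2nd Cd38+/- library within its genotype. Fth1 differed on the log2 scale by -0.20 in Cd38+/- (SE 0.227, q = 0.439) and by 0.01 in Cd38-/- (SE 0.232, q = 0.56) against Cd38+/+, the latter with an interval of 0.708-fold to 1.43-fold.

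Those high Fth1 libraries were also the libraries with the most oligodendrocyte RNA. The 10 oligodendrocyte markers summed to 17850 TPM in Cd38-/- replicate 3 and 11070.0 TPM in Cd38+/- replicate 2, the highest sums of their genotypes. In the other Cd38-/- libraries the sum was 3194, 3629, 8682, 3855 and 9333 TPM (replicates 1, 2, 4, 5 and 6), and in the other Cd38+/- libraries 3114 and 3848 TPM. Within both mutant genotypes the libraries with a sum of 3855 TPM or less had Fth1 between 3927 and 4865 TPM, and those with a higher sum had Fth1 of 5860.2 TPM or more. The Cd38+/+ libraries did not follow that order, with Fth1 of 5676, 6002 and 4964 TPM beside sums of 7235, 4985 and 1329 TPM. Mbp, the gene of myelin basic protein and a defining marker, had 13420.0 TPM in Cd38-/- replicate 3 and 598 TPM in Cd38+/+ replicate 3; none of the 10 markers was at 0 in a mutant library, and 1 or 2 were at 0 in each Cd38+/+ library. The genes most like Fth1 over the deviations of all 12 libraries were Plekhb1 (r = 0.948), Prr18 (0.935) and Ppp1r11 (0.928). The part of oligodendrocyte RNA in the Fth1 level was not tested.

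**Figure D3:**
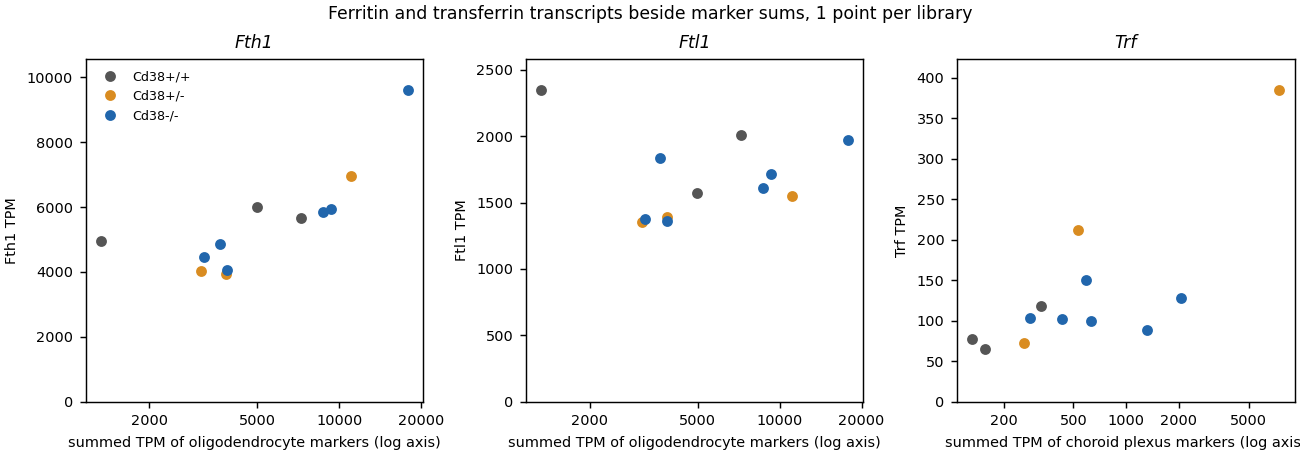
Level of Fth1, Ftl1 and Trf in TPM (y axes, linear from 0) against the summed TPM of oligodendrocyte markers (left and middle panels) or choroid plexus markers (right panel), both on a log axis; each point is 1 library, coloured by genotype. The highest Fth1, 9601 TPM, stands at the highest oligodendrocyte sum, 17850 TPM, and the highest Trf, 385 TPM, at the highest choroid plexus sum, 7481 TPM.

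The ferritin light chain was lower in Cd38+/- than in Cd38+/+ without overlap, but was not called. Ftl1 (chr7:45457944-45459884, minus strand) had 2012.1, 1571 and 2347 TPM in Cd38+/+ and 1356, 1546 and 1393 TPM in Cd38+/-. In Cd38-/- it ranged from 1361 to 1974 TPM (median 1661), overlapping both. The log2 fold change in Cd38+/- was -0.45 (SE 0.167, unadjusted p = 0.0257, q = 0.207), and the exact permutation p was 0.1, the smallest that 3 against 3 libraries allow. In that comparison 6.94% of all genes were lower without overlap. In Cd38-/- the log2 fold change was -0.26 against Cd38+/+ (q = 0.195) and 0.19 against Cd38+/- (q = 0.45). The summed erythroid markers, which include the hemoglobin genes, were also lower in Cd38+/- than in Cd38+/+ without overlap, with Cd38-/- overlapping both. They summed to 7770.0 to 34710 TPM in Cd38+/+, 3228 to 6453 TPM in Cd38+/- and 3805 to 15380 TPM in Cd38-/-, with none at 0. Within Cd38+/+ the order was the reverse of that of Ftl1. Replicate 2 had the highest sum, 34710 TPM, and the lowest Ftl1, 1571 TPM. Replicate 3 had the lowest sum, 7770.0 TPM, and the highest Ftl1, 2347 TPM. The part of erythroid RNA in the Ftl1 level was not tested. The ratio of Fth1 to Ftl1 was 2.12 to 4.86 over the 12 libraries (3.32 ± 0.786), a wider relative spread than that of Mt1 to Mt2. Reads of ferritin genes may be split with near-identical copies: Ftl1-ps1 on chromosome 13 was in the table with at most 113 TPM, whereas processed copies such as Fth-ps2 and Ftl2-ps had no row of their own, so the levels of both subunits are uncertain to that extent.

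Cp, the ferroxidase of iron export, was the only gene of the set that was called, higher in Cd38-/- than in Cd38+/+. This 1 call among 10 genes stands beside 8.28% of all genes called there, and 8 of the 10 had a positive estimate. Cp (chr3:19957054-20009145, plus strand) had 26.1, 14.7 and 34.8 TPM in the Cd38+/+ libraries. In the Cd38-/- libraries it had 60.9, 51.5, 50.8, 31.7, 55.7 and 41.1 TPM, so that 5 of 6 lay above every Cd38+/+ library and replicate 4 lay below the highest of them. The mean rose from 25.2 ± 10.1 TPM (SD, n = 3) to 48.6 ± 10.6 TPM (n = 6), a log2 fold change of 0.97 (SE 0.272, 1.96-fold, limma q = 0.0395) with a 95% interval of 1.3-fold to 2.95-fold. The two-sided exact permutation test gave p = 0.0238. The share of all genes called higher in that comparison was 6.42%. The Cd38+/- libraries had 62.4, 23.6 and 26.7 TPM, with 1 library as high as any and 2 within the Cd38+/+ range (log2 fold change 0.50, SE 0.444, q = 0.395). The difference between Cd38-/- and Cd38+/- was 0.47 (q = 0.406), so the genotypes were not shown to differ from each other.

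The call on Cp depended on single libraries and settings. The direction held in all 21 alternatives, with log2 fold changes between 0.64 and 1.23, but q was above 0.05 in 11 of them. It was 0.0614 without Cd38+/+ replicate 2, the library with the lowest Cp, and 0.0603 to 0.0931 without Cd38-/- replicate 1, 2, 3, 5 or 6. When trends on length and GC content were taken out of every library, the log2 fold change was 0.73 (q = 0.0518). Ceruloplasmin is also made by the choroid plexus. The 8 choroid plexus markers summed to 328, 133 and 157 TPM in Cd38+/+, with 2, 5 and 4 markers at 0, and to 284 to 2063 TPM in Cd38-/-, with none at 0. Ttr (transthyretin), the defining marker, was listed at 0 in Cd38+/+ replicates 2 and 3 and had 223 TPM in replicate 1. Of the 7 markers tested, 4 were called higher in Cd38-/-: Ttr, Kcnj13, Clic6 and Folr1. The highest Cp of the Cd38+/- libraries, 62.4 TPM, was in Cd38+/- replicate 1, where the sum was 7481 TPM, and the lowest Cp of the Cd38-/- libraries, 31.7 TPM, was in replicate 4, where the sum was 284 TPM. Over the 6 Cd38-/- libraries the orders of Cp and of the sum were largely shared: replicates 5, 3, 6 and 4 held the same place in both, with sums of 1317, 592, 433 and 284 TPM, and replicates 1 (highest Cp, 60.9 TPM, with a sum of 630 TPM) and 2 (highest sum, 2063 TPM, with Cp of 51.5 TPM) were exchanged. Elsewhere the orders were not shared. Cd38+/- replicate 2, with a sum of 529.6 TPM, had Cp of 23.6 TPM, the lowest of its genotype. Cd38-/- replicate 6, with the smaller sum of 433 TPM, had 41.1 TPM. Cd38+/+ replicate 3 had the highest Cp of its genotype, 34.8 TPM, at a sum of 157 TPM. The part of choroid plexus RNA in the Cp level was not tested.

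Slc40a1, the iron exporter itself, was not called and its direction rested on 1 library. Slc40a1 (chr1:45908068-45926523, minus strand) had 34.4 and 51.8 TPM in Cd38+/+ replicates 1 and 2 and was listed at 0 in replicate 3. The Cd38+/- libraries had 25.4, 11.6 and 19.2 TPM, and the Cd38-/- libraries had 12.4 to 33.2 TPM (median 19.9). All mutant libraries thus lay below replicates 1 and 2 and above replicate 3 of Cd38+/+. With every library in the fit, the log2 fold change in Cd38-/- against Cd38+/+ was 0.79 (SE 0.95, q = 0.361), with an interval of 0.412-fold to 7.25-fold. Without Cd38+/+ replicate 3 it was -1.02 in Cd38-/- (q = 0.0244, called lower) and -1.2 in Cd38+/- (unadjusted p = 0.0169, q = 0.106). Leaving out that library also raised the number of all genes called from 970 to 3119. A value of 0 in this table can be a failed estimate, so no mean is given for that genotype.

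**Figure D4:**
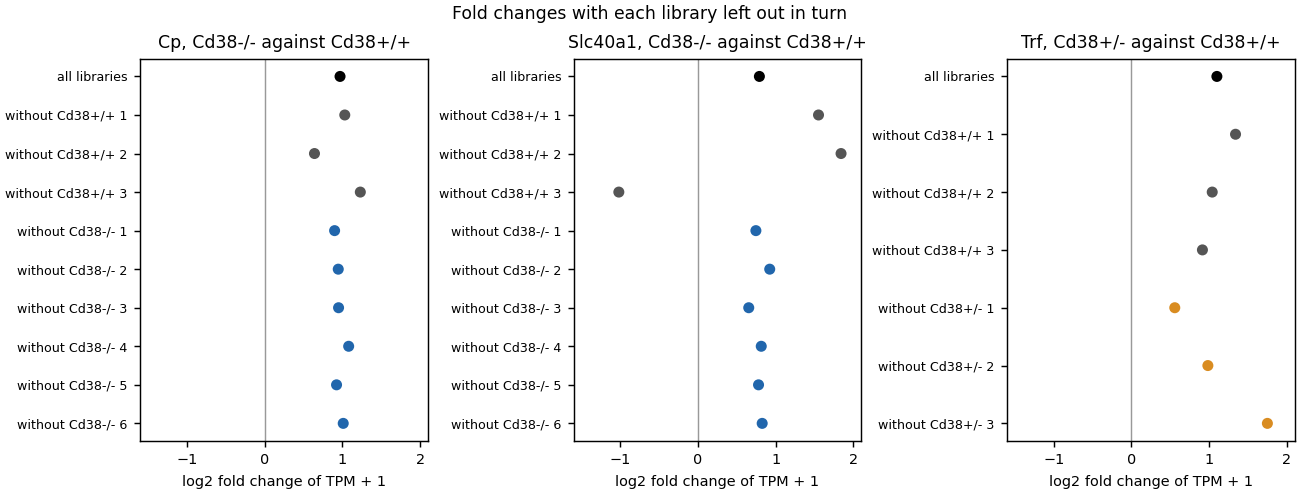
Log2 fold change of TPM + 1 (x axis) with all libraries and with each library left out in turn (rows, coloured by the genotype of the library left out) for Cp and Slc40a1 in Cd38-/- against Cd38+/+ and for Trf in Cd38+/- against Cd38+/+. Cp stays between 0.64 and 1.23, Slc40a1 falls to -1.02 without Cd38+/+ replicate 3, and Trf spans 0.56 to 1.75.

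The uptake genes showed no called change. Slc39a14 (chr14:70303469-70351425, minus strand) had 31.5, 39.4 and 26 TPM in Cd38+/+, 39.1, 25.7 and 28.7 TPM in Cd38+/-, and 16.98 to 37.0 TPM (median 22.9) in Cd38-/-. Of the 6 Cd38-/- libraries, 4 lay below every Cd38+/+ library. The log2 fold change in Cd38-/- against Cd38+/+ was -0.40 (SE 0.262, q = 0.214), and in Cd38+/- it was -0.05 (q = 0.595). Tfrc (chr16:32608920-32632794, plus strand) had 27.7, 47.7 and 28.3 TPM in Cd38+/+ and 52.6, 45.4 and 55.8 TPM in Cd38+/-. Its Cd38-/- libraries ranged from 35.9 to 59.2 TPM (median 37.8). The 2 lowest values of all 12 were Cd38+/+ libraries, and the third Cd38+/+ library lay within the mutants. Tfrc differed on the log2 scale by 0.60 in Cd38+/- (SE 0.274, unadjusted p = 0.0584, q = 0.241), 0.31 in Cd38-/- against Cd38+/+ (q = 0.243) and -0.29 between Cd38-/- and Cd38+/- (q = 0.39). Tfrc and Ftl1 deviated in opposite directions across the 12 libraries (Pearson's r of the deviations -0.869), as did Slc39a14 and Ftl1 (-0.83). Tfrc and Slc40a1 had an r of 0.425 and Fth1 and Tfrc an r of -0.401. The Slc40a1 deviations lay mostly in Cd38+/+, where 1 library was listed at 0. Their SD on the log2 scale was 3.15 there, against 0.54 in Cd38+/- and 0.45 in Cd38-/-. The r of Slc40a1 with Tfrc therefore rests largely on the Cd38+/+ libraries. The search found no hairpin in Slc39a14. These correlations also carry base composition, with a median GC content of 58.1% for Ftl1 and 38.9% for Tfrc. The part of iron-responsive elements in them was not tested.

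Trf had the largest log2 fold change of the set in Cd38+/-, carried by 2 of 3 libraries. Trf (chr9:103204001-103230444, minus strand) had 119, 77.5 and 65.3 TPM in Cd38+/+ and 385, 213 and 73.0 TPM in Cd38+/-. In Cd38-/- it ranged from 88.6 to 150.5 TPM (median 103). Cd38+/- replicates 1 and 2 were thus above all other libraries, whereas replicate 3 lay within Cd38+/+. The log2 fold change in Cd38+/- was 1.1 (SE 0.521, unadjusted p = 0.0649, q = 0.247), and it was 0.56 without Cd38+/- replicate 1 and 1.75 without Cd38+/- replicate 3. For Cd38-/- against Cd38+/+ it was 0.38 (q = 0.161). Without Cd38+/+ replicate 1, where 1328 of 11778 genes tested were called higher, it was 0.63 and passed the threshold (q = 0.0386). Between Cd38-/- and Cd38+/- it was -0.71 (q = 0.375). Transferrin is made in the brain by oligodendrocytes and the choroid plexus. Cd38+/- replicate 1 had the highest choroid plexus sum of all libraries (7481 TPM, with Ttr at 6537 TPM) and an oligodendrocyte sum of 3114 TPM. Cd38+/- replicate 2 had sums of 529.6 and 11070.0 TPM for the same markers, and replicate 3 had 261 and 3848 TPM. Cd38-/- replicate 3, the library with the highest oligodendrocyte sum, had the highest Trf of its genotype. The part of either cell type in the Trf level was not tested.

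Around the set, 80 further genes of iron, zinc and copper handling were listed, of which 68 to 69 were tested in each comparison. In Cd38+/- against Cd38+/+, 0 were called by limma, and of 69 tested 7 higher and 3 lower had an unadjusted p under 0.05. Over all 11763 genes tested there, 1117 higher and 469 lower had such a p, 13.5% in all. The Cd38-/- comparison with Cd38+/+ called 3 higher and 1 lower of 68 tested, beside the 8.28% of all genes called. None was called between Cd38-/- and Cd38+/-, where 0.0346% of all genes were. Their median log2 fold change against Cd38+/+ was 0.14 in Cd38+/- and 0.15 in Cd38-/-, beside 0.18 and 0.15 over all genes.

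The called genes belonged to heme breakdown, metal reduction and zinc transport. Hmox1, the heme oxygenase that frees iron from heme, had 7.04 and 9.51 TPM in Cd38+/+ replicates 1 and 2 and was listed at 0 in replicate 3. It had 13.7 to 16.9 TPM in Cd38+/- and 14.8 to 19.0 TPM in Cd38-/-, so that all mutant libraries lay above all Cd38+/+ libraries. The log2 fold change in Cd38-/- was 2.05 (SE 0.587, q = 0.0418), a value that includes the 0. Without Cd38+/+ replicate 3 it was 0.98 (q = 0.00906), and with pseudocounts of 0.1 and 5 it was 3.18 and 1.21. The call was lost in 13 of 20 alternatives. Blvrb, a biliverdin reductase abundant in red blood cells, fell from 68.9 ± 6.61 TPM (n = 3) to 41.6 ± 8.85 TPM (n = 6), with a log2 fold change of -0.74 (q = 0.0364) and no overlap. Its call was lost in 9 of 21 alternatives, and the erythroid sums given above for Ftl1 stand beside it as well. Steap2, a metalloreductase, had 11.4, 2.62 and 4.29 TPM in Cd38+/+ and 14.9 ± 3.85 TPM in Cd38-/- (log2 fold change 1.33, q = 0.0436, lost in 12 of 21). Slc39a9, a zinc transporter, rose from 26.6 ± 5.51 to 45.3 ± 9.70 TPM without overlap (0.74, q = 0.0439, lost in 10 of 21).

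**Figure D5:**
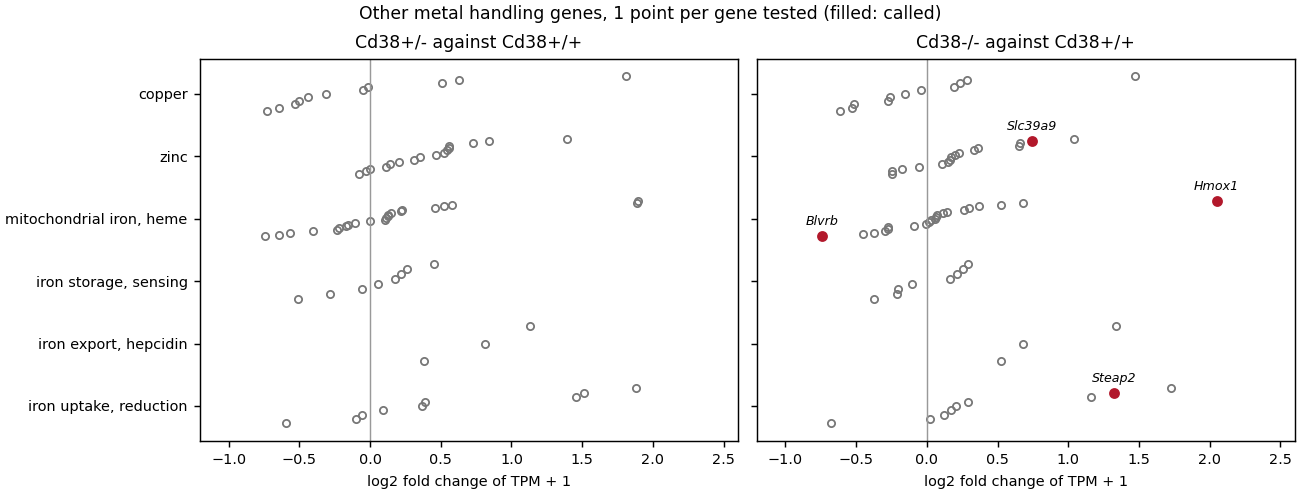
Log2 fold change of TPM + 1 (x axis) of the other metal handling genes tested, by list (rows), in Cd38+/- (left) and Cd38-/- (right) against Cd38+/+; each point is 1 gene, and filled, named points were called. No gene is filled on the left, and Hmox1, Steap2 and Slc39a9 (higher) and Blvrb (lower) are filled on the right.

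Other partners of the set gave values without calls. Heph, hephaestin, the other ferroxidase of iron export, had 22.1, 15.8 and 17.5 TPM in Cd38+/+ and 35.6, 31.0 and 32.2 TPM in Cd38+/-, without overlap (log2 fold change 0.81, unadjusted p = 0.017, q = 0.196). Hamp, which encodes the hormone hepcidin that removes ferroportin, was listed at 0 in all 12 libraries. Slc11a2 (DMT1), the transporter that carries iron out of the endosome, had 37.0 ± 5.53 TPM in Cd38+/+ and 47.9 ± 5.73 TPM in Cd38+/- (0.37, q = 0.319). Pcbp2, an iron chaperone, had 93.6 ± 3.52 TPM in Cd38+/+ and 72.3 ± 5.72 TPM in Cd38-/-, without overlap (-0.37, q = 0.0625).

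Among zinc and copper genes, Slc39a12, a zinc transporter abundant in astrocytes, had 334 ± 35.8 TPM in Cd38+/+ and 488 ± 63.6 TPM in Cd38+/- (log2 fold change 0.54, unadjusted p = 0.00741, q = 0.177). In that comparison 9 of the 10 astrocyte markers had a positive log2 fold change and 1 a negative one. Their median was 0.39, beside 0.18 over all genes. The part of astrocyte RNA in the Slc39a12 level was not tested. Atox1, the copper chaperone, had 261 ± 31.9 TPM in Cd38+/+ and 156 ± 5.65 TPM in Cd38+/-, with no overlap (-0.73, unadjusted p = 0.00104, q = 0.176). Slc30a10, a manganese exporter of the zinc transporter family, had 37.7 ± 5.29 TPM in Cd38+/- and 24.8 ± 4.89 TPM in Cd38-/- (-0.60, q = 0.182). Mt4, the remaining metallothionein, was listed at 0 in 10 of the 12 libraries and had at most 2.25 TPM. Of the zinc list, 13 of 16 genes tested had a positive log2 fold change in Cd38+/- and 12 of 16 in Cd38-/-, against Cd38+/+, with medians of 0.41 and 0.19; over all genes the estimate was positive for 7577 of 11763 and 7535 of 11722. Of the copper list, 8 of 11 had a negative one in Cd38+/- and 7 of 11 in Cd38-/-, with medians of -0.31 and -0.15, where 4186 and 4187 of all genes were negative.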

How the data were processed

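RNA-seq libraries of midbrain astrocytes were grouped by the genotype in their labels (3 Cd38+/+, 3 Cd38+/- and 6 Cd38-/-). The labels do not say which libraries share a litter or day, nor explicitly that each is a separate mouse, so that p-values measure the spread between libraries. Astrocytes were taken by the authors with ACSA-2 beads after endothelial, myelin and CD11b+ cells had been removed. The labels give polyA RNA, the study's methods rRNA depletion and a full-length low-input cDNA kit. The authors trimmed reads with Trim Galore 0.6.4, mapped them to mm10 with STAR 2.7.1a and estimated expression with RSEM 1.2.28. The deposited unit is TPM for 20614 genes. TPM keeps no counts, so that depth is unknown and counting error could not be given. DESeq2 1.36.0 is listed in the submitters' processing notes without a role.

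Genes had to reach a mean above 5 TPM in 1 or both compared genotypes. The log2(TPM + 1) of only the compared libraries was fitted with limma 3.58.1 (eBayes with a trend) in R 4.3.3. A fold change is on the log2(TPM + 1) scale, which understates that of low genes. Storey q-values used lambda from 0.05 to 0.95 in steps of 0.05. A call needed a 1.2-fold change or more and a q below 0.05. Exact permutation tests, two-sided, were added for single genes (scipy 1.17.1). The fit was tested on simulated data. Positions and transcripts are those of GENCODE vM21 (GRCm38), where 20503 of the genes were found.

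The 10 genes and all lists were chosen with earlier results of these data known. Named genes were the 10 members, Cd38, in each other list the called genes and at most 4 genes without overlap with the largest fold changes per comparison, and the 3 genes most like each member; Mbp, Hamp, Mt4 and the members' pseudogenes were named for their role. Not reported here is 1 gene under this rule. Alternatives were pseudocounts of 0.1 and 5, other filters, Benjamini-Hochberg adjustment, median-ratio scaling, quantile normalization, removal of the trend on length and GC content, all 12 libraries in one fit, a replicate block, library quality weights (statmod 1.5.0) and leaving out each library. Figures were drawn with matplotlib 3.10.9.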

Additional observations from a re-analysis of the deposited data

Results flagged for a closer look

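The Fth1 level of Cd38-/- replicate 3 stood apart from the other 5 libraries of its genotype. At 9601 TPM, its distance to the next library (5937 TPM) was 0.662 of the whole range, above the limit of 0.625 for 6 libraries. On the log2 scale, which the fits used, the share was 0.559 and under the limit. The 10 members and Cd38 were looked at in this way in the Cd38-/- libraries, 11 genes in all, and chance alone gives about 1 in 20 such results. The same library had the highest summed oligodendrocyte markers of the series, 17850 TPM. Without it, the log2 fold change of Fth1 in Cd38-/- against Cd38+/+ was -0.15 in place of 0.01.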

How the results depend on the processing

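No member was called in Cd38+/- against Cd38+/+ under any alternative. In Cd38-/- against Cd38+/+, the count of 1 (Cp) became 0 under Benjamini-Hochberg adjustment, with the length and GC trend removed, with the replicate block, with the block and the trend removal together, and with library quality weights, and was 0 to 3 with single libraries left out (3 without Cd38+/+ replicate 3: Cp, Mt3 and Slc40a1; 2 without Cd38+/+ replicate 1: Cp and Trf). In Cd38-/- against Cd38+/-, the count of 0 became 6 with library quality weights, where 3120 genes were called; there Cd38+/- replicate 3 had a weight of 42.6 against 0.384 to 1.4 for the others and the estimate did not reach its tolerance. Deviations of same-numbered libraries had correlations between -0.317 and 0.501, of 9. The highest was that of replicate 1 of Cd38-/- and Cd38+/-, and the lowest that of replicate 2 of the same genotypes. As the pairs did not share a sign, the numbers were not taken to pair the libraries. Replicate numbers above 3 occur only in Cd38-/-, so under the replicate block those libraries did not inform the genotype effect. With the block, each comparison of Cd38-/- was in effect 3 against 3 libraries. The part of this smaller number in the calls that changed was not tested. These directions turned. In Cd38-/- against Cd38+/+, Fth1 was -0.12 with median-ratio scaling, -0.15 with the trend removed, -0.0769 with block and trend removal, -0.000961 with library quality weights and -0.15 to 0.0973 with single libraries left out. Mt1 was -0.0101 with median-ratio scaling, -0.0114 with the trend removed, -0.13 with block and trend removal and -0.047 to 0.259 with 1 library left out; Mt2 was -0.0835 with block and trend removal; with 1 left out, Mt3 was -0.0377 to 0.376 and Slc40a1 -1.02 to 1.84. In Cd38+/- against Cd38+/+, Trf was -0.18 with library quality weights, and with single libraries left out Slc39a14 was -0.224 to 0.0968, Mt3 -0.396 to 0.0174 and Slc40a1 -1.2 to 1.67. In Cd38-/- against Cd38+/-, Trf was 0.51 with library quality weights and Slc40a1 -0.12 to 0.42 with 1 left out; without both Cd38+/- replicate 2 and Cd38-/- replicate 3, an alternative chosen after seeing the data, Slc40a1 was -0.26 and no member was called. For these the cause was not tested. Median-ratio scaling, quantile normalization and trend removal moved the median of all genes in Cd38-/- against Cd38+/+ from 0.15 to 0.03, 0.05 and -0.07, and the share of higher calls from 77.5% to 58.6%, 59.9% and 32.4%. Over all genes, the 970 calls of that comparison became 326 by Benjamini-Hochberg adjustment, 2283 without a filter, 1822 with all 12 libraries, 2 with the block, 1 with library quality weights and 74 to 3119 with single libraries left out. The 0 calls in Cd38+/- against Cd38+/+ became 663 without a filter, 1464 with all 12 libraries and 30 with library quality weights, 4 with the block, 2 with block and trend removal and 10 without Cd38+/+ replicate 3. The 4 calls between the mutant genotypes became 279 with block and trend removal, 0 to 93 with single libraries left out (93 without Cd38-/- replicate 4) 0 without both Cd38+/- replicate 2 and Cd38-/- replicate 3, and 1 to 6 otherwise, the 3120 above apart. Slc40a1 gave no value under a minimum of 1 TPM in every library against Cd38+/+.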
